A study of Mus musculus with 25 samples.

Results

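The 10 genes Irgm1, Irgm2, Igtp, Iigp1, Tgtp2, Gm4951, Gbp2, Gbp3, Gbp6 and Gbp7 encode interferon-inducible GTPases. They were taken by name from the gene-level expression tables of all 25 mouse RNA-seq libraries, in which 22985 gene symbols could be used. All 10 passed the low-expression filter, at least 1 FPKM (a fragment density scaled to transcript length and to the mapped fragments of the library) in at least 2 of the 21 libraries that entered the tests, as 11532 genes did. The libraries came from T cells of spleen and lymph node of C57BL/6 mice. Conventional T cells (Tconv) were wild type (WT), either resting (2 libraries) or stimulated (2). Regulatory T cells (Treg) were WT resting (4) or stimulated (2), p65KO resting (3) or stimulated (1), c-RelKO resting (2) or stimulated (1), and p65 c-Rel DKO, which lacks both proteins, resting (2) or stimulated (2). Rela encodes p65 and Rel encodes c-Rel, which are DNA-binding subunits of the transcription factor NF-kB. Stimulation was 3 h with 2 µg/ml of antibodies to CD3 and CD28 and with IL-2. In a separate set, 1 WT Tconv and 1 WT Treg library without deletion stood beside 1 Treg library labelled FoxP3 del and 1 labelled NFkB del, in which TAT-Cre, a cell-permeable recombinase, was used to delete genes before stimulation. The age of the mice, the Cre driver of the knockouts and whether libraries of a group came from separate mice could not be read from the labels, so p-values measure the spread between libraries, which may be technical.

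Interferons bind receptors at the cell surface and, through JAK kinases, activate transcription factors that bind gamma-activated sites (GAS) and interferon-stimulated response elements (ISRE) in DNA. IRF1, itself an interferon-induced factor, also binds ISRE. The immunity-related GTPases (IRG) and guanylate-binding proteins (GBP) are among the most strongly interferon-gamma-induced proteins of mouse cells, where they attack the vacuoles of intracellular parasites and bacteria. Within the IRG family, Irgm1, Irgm2 and Igtp are regulators that sit on the cell's own membranes and keep the effector GTPases inactive there. Iigp1 and Tgtp2 are effectors that load onto pathogen vacuoles, and Gm4951 is a predicted member of the same family. Gbp2, Gbp3, Gbp6 and Gbp7 are large GTPases that assemble on vacuoles and on bacteria. In T cells, interferon-gamma is a hallmark cytokine of effector cells, and Treg hold such cells in check.

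The genes lie on 4 chromosomes, mostly in clusters. In the mm9 coordinates of the deposited tables, Irgm1 (48678750 to 48684848), Tgtp2 (48798830 to 48805756 and 48870697 to 48877714), Igtp (58013057 to 58021094) and Irgm2 (58028478 to 58036285) are on chromosome 11. On chromosome 3 lie Gbp7 (142193301 to 142213047), Gbp3 (142223015 to 142236176) and Gbp2 (142283626 to 142300972), and Gbp6 is on chromosome 5 (105699720 to 105722718). The coordinates of Iigp1 and Gm4951 are given with their levels. Tgtp2 has a near-identical neighbour, Tgtp1, and Gbp6 is close in sequence to Gbp10, so how reads were divided between these copies is uncertain. The 2 Tgtp2 entries were summed, and the second carried 34.5 to 556 FPKM of the total against 0.00220 to 31.3 FPKM for the first.

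RefSeq promoter windows (GRCm38.p6, 250 bases before to 50 after the gene start) were found for 7 of the 10 genes, and the stretches around the interferon-type motifs are printed to show what letters stand at the gene starts of this interferon-induced family. Each runs 5′ to 3′ on the gene's strand. Capitals mark GAAANNGAAA, a pair of ISRE half-sites, or its reverse complement TTTCNNTTTC, and TTCNNNGAA, the GAS motif, which reads the same on both strands. The motifs can overlap in principle, and overlapping matches run together as 1 block of capitals in Irgm1 and Gbp3.
Irgm1, chr11:48871411-48871480, minus strand: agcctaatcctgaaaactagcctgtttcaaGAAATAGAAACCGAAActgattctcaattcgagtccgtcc
Irgm2, chr11:58214883-58214952, plus strand: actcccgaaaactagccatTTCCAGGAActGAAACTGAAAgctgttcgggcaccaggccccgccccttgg
Igtp, chr11:58199492-58199561, plus strand: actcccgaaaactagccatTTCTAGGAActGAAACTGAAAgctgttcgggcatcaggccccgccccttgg
Tgtp2, chr11:49064243-49064312, minus strand: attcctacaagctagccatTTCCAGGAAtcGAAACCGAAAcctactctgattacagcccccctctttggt
Gbp2, chr3:142620574-142620643, plus strand: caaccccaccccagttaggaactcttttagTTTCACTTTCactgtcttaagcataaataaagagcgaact
Gbp3, chr3:142559969-142560038, plus strand: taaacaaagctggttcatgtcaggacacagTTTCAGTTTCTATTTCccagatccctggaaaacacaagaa
Gbp7, chr3:142530220-142530322, plus strand: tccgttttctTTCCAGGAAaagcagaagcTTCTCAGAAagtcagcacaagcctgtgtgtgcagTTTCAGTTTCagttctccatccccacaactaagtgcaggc

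All 7 of these genes held the ISRE half-site pair in a window, within 70 bases before the start. The pair was found in 3.45% of the 32544 RefSeq promoter windows of 300 bases. Gbp3 had a second window, 1 of 8 for these genes, which held no match to any motif searched. The GAS motif was found in 4 of the 7 (Irgm2, Igtp, Tgtp2 and Gbp7), against 8.33% of all windows. In Irgm2, Igtp and Tgtp2 the GAS match ends 2 bases before the ISRE match. The printed stretches of Irgm2 and Igtp are identical at 68 of 70 bases, so their matches are not independent, while Tgtp2 shares 47 of 70 with Irgm2. The NF-kB consensus, searched on both strands by its degenerate letters, had 1 match among the 7, in Gbp2, 7 bases after the gene start, against 8.49% of all windows. A match is a description of the letters and neither a bound site nor a cause.

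The labels were checked against the genes they name. Rel stood at 1.76 to 2.09 FPKM in resting c-RelKO Treg and 1.96 to 2.06 FPKM in resting DKO Treg, against 27.5 to 271 FPKM in WT Treg. Rela stood at 58 to 79.8 FPKM in resting p65KO Treg and overlapped resting WT Treg (64.9 to 129.7 FPKM). In resting DKO Treg it stood at 76.1 and 56.3 FPKM. Stimulated DKO Treg had 107 and 99.0 FPKM, against 126 and 118 FPKM in stimulated WT Treg. Since the labels do not name the deleted stretch, a gene-level value does not test the p65 part of these labels. Foxp3, the defining Treg transcription factor, stood at 129 to 351 FPKM in WT Treg but at only 8.01 and 21.2 FPKM in resting and 6.34 and 8.31 FPKM in stimulated libraries labelled DKO Treg. The library labelled FoxP3 del had more Foxp3 (266 FPKM) than its WT Treg control (86.7 FPKM). Library numbers in the labels fall into 4 consecutive runs, and comparisons within a run are given beside the pooled ones. Outside the TAT-Cre set, 3 resting libraries were set apart for their B cell, myeloid or erythroid markers. These were WT Treg 1 (B cells), p65KO Treg 3 (myeloid cells) and c-RelKO Treg 2 (B, myeloid and erythroid cells). Counts without these 3 libraries are given where they differ, and they leave every DKO Treg library in. NK and CD8 T cell markers summed to 129 to 227 FPKM in resting and 191 to 349.9 FPKM in stimulated DKO Treg. In WT Treg the sums were 12.7 to 59.5 and 14.8 to 19.2 FPKM. Erythroid markers reached 354 FPKM in stimulated DKO Treg and 538 FPKM in resting WT Treg.

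Iigp1 (mm9, 60535682 to 60552283) and Gm4951 (60371730 to 60407474) lie on chromosome 18. At rest in WT Treg, Igtp was the most abundant of the 10 per transcript length, at 202 ± 54.7 FPKM (SD, n = 4), and Gm4951 the least, at 1.63 ± 0.717 FPKM (SD, n = 4). The others had means between 36.3 ± 13.4 FPKM (SD, n = 4) for Iigp1 and 82.7 ± 32.7 FPKM (SD, n = 4) for Gbp2. Over all 25 libraries the highest value was found in a stimulated WT Tconv library for 8 genes, all but Gbp3, which was highest in c-RelKO Treg 2 (104 FPKM), and Gm4951, which was highest in p65KO Treg 1 (9.71 FPKM). Of the 9 more abundant genes, Irgm1 had the widest range as a ratio, 28.6 to 711 FPKM, and Igtp the narrowest, 155 to 772 FPKM. Gm4951, with 0.217 to 9.71 FPKM and a median of 1.76 FPKM, was the lowest of the 10 genes. Its fold changes on a log2(FPKM + 1) scale are understated.

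**Figure D1:**
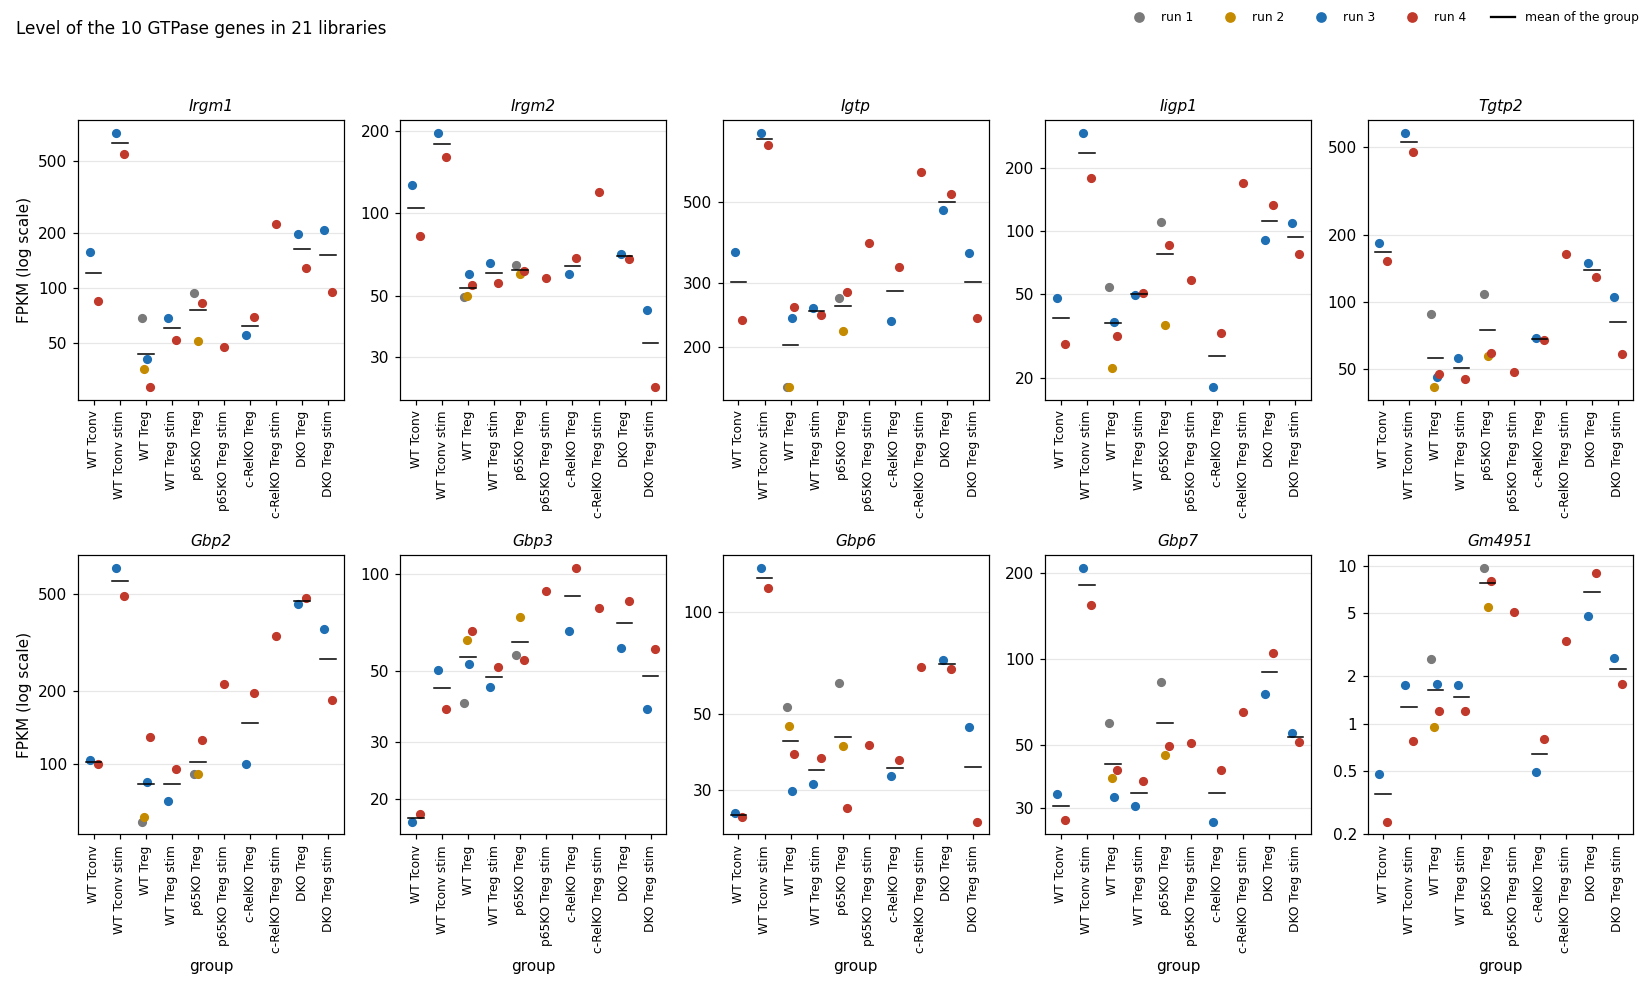
FPKM (log axis) of each of the 10 genes in the 21 libraries outside the TAT-Cre set, by group, with 1 point per library coloured by run and a line at the mean of groups with more than 1 library. Stimulated WT Tconv stood highest for 8 genes, and resting DKO Treg stood above all 4 resting WT Treg libraries for every gene but Gbp3.

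Across the 21 libraries in the fit, Igtp and Gbp7 followed the mean profile of the 10 genes most closely, with root mean squared differences of 0.27 and 0.29 on the log2 scale, and Gm4951 (0.92) and Gbp3 (0.84) least. Among the other genes tested, the 5 nearest to that mean profile were Gm12250 (0.28), Tap1 (0.37), Pml (0.39), Parp9 (0.40) and Kpnb1 (0.41), where the median over all genes tested was 0.78. Gm12250 is another IRG gene, Tap1 encodes a subunit of the antigen peptide transporter, and Pml encodes the organizer of PML nuclear bodies. Parp9 encodes an interferon-inducible ADP-ribosyltransferase family member, and Kpnb1 a nuclear import receptor.

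The first comparison asked how resting Treg differ from resting Tconv. Irgm1 read 68.0, 36.1, 40.6 and 28.6 FPKM in the 4 WT Treg libraries and 158 and 84.4 FPKM in the 2 WT Tconv libraries. Every Treg value was below both Tconv values, a log2 difference of -1.47 ± 0.39 (SE, adjusted p = 0.0245) in limma's test across all genes. Tgtp2 read 87.9, 41.3, 46.0 and 47.1 FPKM in Treg and 185 and 152 FPKM in Tconv, a difference of -1.64 ± 0.32 (SE, adjusted p = 0.00433), and Irgm2, a regulator like Irgm1, differed by -0.92 ± 0.22 (SE, adjusted p = 0.0127). Gbp3 went the other way, with 39.8, 62.1, 52.3 and 66.4 FPKM in Treg against 17.0 and 18.0 FPKM in Tconv and a difference of 1.57 ± 0.25 (SE, adjusted p = 0.00108). Thus 3 of the 10 genes were lower, where 5.53% of all genes tested were, and 1 was higher, where 7.03% were. The other 6 did not pass, among them Gbp2, at 57.9 to 128 FPKM in Treg and 100.1 to 104 FPKM in Tconv. Gm4951 passed as higher in limma's test with size factors (0.89, adjusted p = 0.0423) and with a pseudocount of 0.1 (1.86, adjusted p = 0.0126). It read 0.954 to 2.57 FPKM in Treg and 0.240 to 0.483 FPKM in Tconv. Groups did not overlap for 3 genes higher in Treg (18.7% of all genes tested) and 3 lower (16.8%). Without WT Tconv 1, only 1 of the 4 calls was left. In run 3 the differences of Irgm1 and Tgtp2 were -1.93 and -1.98, and in run 4 -1.53 and -1.67. In bulk RNA, a change in the share of cells that express a gene and a change in RNA per cell cannot be told apart.

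Stimulation of WT Tconv raised 8 of the 10 GTPase genes, both regulators and effectors, where 6.69% of all genes tested rose. Irgm1 went from 158 and 84.4 FPKM at rest to 711 and 544 FPKM after stimulation, a log2 difference of 2.42 ± 0.45 (SE, adjusted p = 0.00343). Gbp2 went from 104 and 100.1 to 638 and 491 FPKM (2.45 ± 0.40 SE, adjusted p = 0.00151), and the effector Iigp1 from 48.0 and 29.1 to 295 and 179.7 FPKM (2.59 ± 0.50 SE, adjusted p = 0.00422). Both stimulated libraries stood well above both resting ones for each of these genes. Gbp7 (2.53), Gbp6 (2.27), Tgtp2 (1.64), Igtp (1.34) and Gbp3 (1.27) also rose in log2 terms, with adjusted p between 0.000288 and 0.0113. Irgm2 read 127 and 82.5 FPKM at rest and 197 and 160.4 FPKM stimulated, with a difference of 0.79 ± 0.25 (SE, adjusted p = 0.0558), and Gm4951 differed by 0.71 ± 0.35 (SE, adjusted p = 0.217). The stimulated values of all 10 genes lay above the resting ones, as they did for 27.6% of all genes tested, and the median difference of the 10 was 1.95 against -0.09 over all genes tested. Within runs 3 and 4 all 10 differences were above 0, with medians of 1.90 and 1.91. The count of 8 fell to 3 without WT Tconv 2 and to 4 without WT Tconv stim 1.

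In WT Treg the same treatment changed none of the 10 genes at the threshold, and limma called none of the 11532 genes tested (0.00% higher and 0.00% lower), with 311 genes and none of the 10 at an unadjusted p under 0.05. Irgm1 read 68.6 and 51.5 FPKM in stimulated WT Treg, with a difference of 0.52 ± 0.39 (SE, adjusted p = 0.698). Both values were inside the range of the 4 resting libraries or within 1 FPKM of its upper end. That upper end was WT Treg 1 (68.0 FPKM), whose run had no stimulated library. Gbp2 read 70.5 and 95 FPKM, again inside the resting range, with a difference of 0.06 ± 0.35 (SE, adjusted p = 0.947). The stimulated and resting values overlapped for all 10 genes, and 5 of the 10 differences were above 0 and 5 below. The signs of Tgtp2 and Gm4951, both near 0, turned when libraries were rescaled by size factors, which moved the median of all genes by -0.11. Within runs, 6 of 10 genes were higher after stimulation in run 3 and 3 of 10 in run 4, with medians of 0.08 and -0.05. In both runs Irgm1 (40.6 to 68.6 and 28.6 to 51.5 FPKM) and Iigp1 (37.0 to 49.4 and 31.6 to 50.5 FPKM) were among the higher genes.

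**Figure D2:**
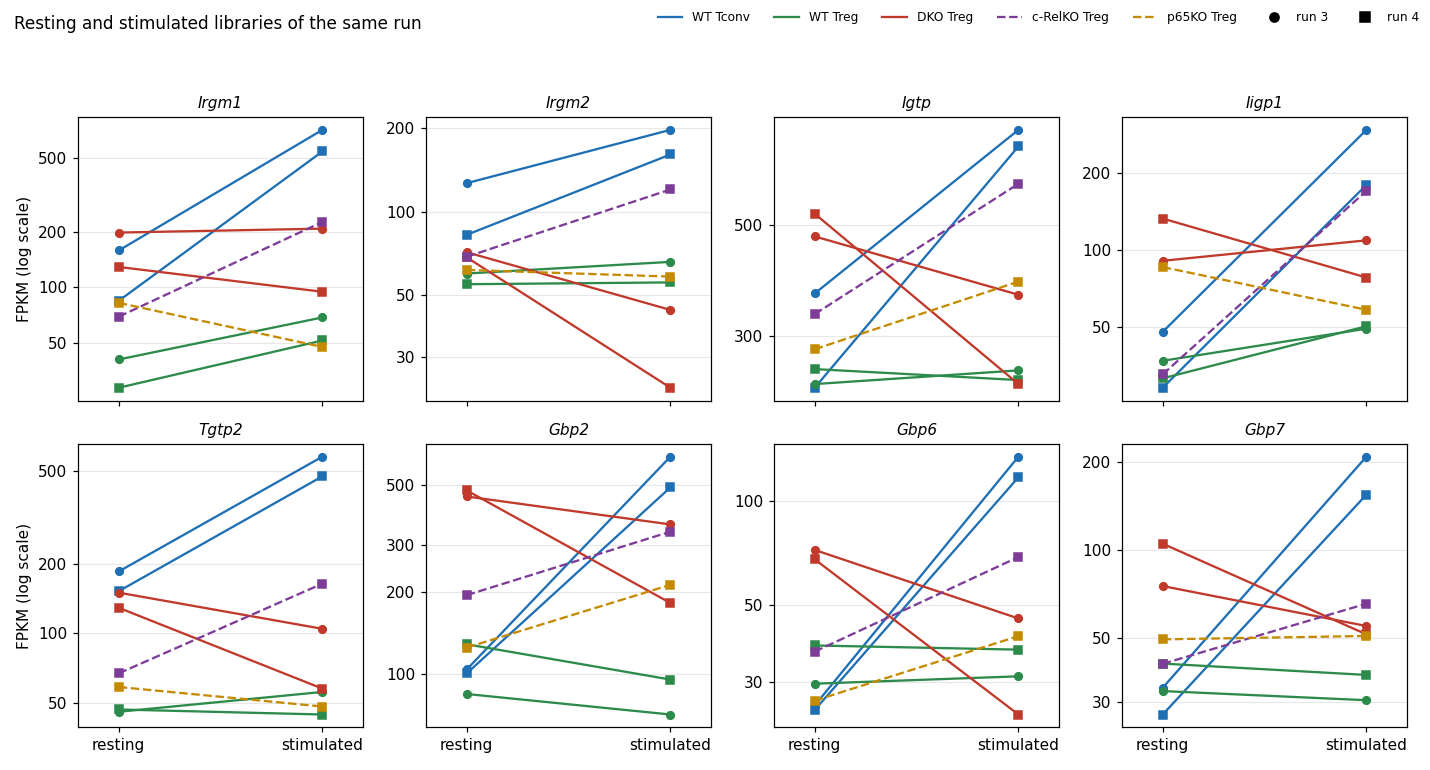
FPKM (log axis) at rest and after stimulation for 8 of the genes, with 1 line per pair of libraries of the same genotype and run. The WT Tconv lines rise in both runs for all 8 genes, the WT Treg lines end below both WT Tconv lines in every panel, and most DKO Treg lines fall.

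The difference between the 2 responses was tested directly. The response of WT Treg was below that of WT Tconv for all 10 genes, and 3 passed the test, where 0.945% of all genes tested were below. These were Gbp7 (-2.83 ± 0.42 SE, adjusted p = 0.00622), Gbp6 (-2.52 ± 0.46 SE, adjusted p = 0.0203) and Gbp2 (-2.39 ± 0.53 SE, adjusted p = 0.0496). Iigp1 (-2.07 ± 0.66 SE, adjusted p = 0.183) and Irgm1 (-1.90 ± 0.59 SE, adjusted p = 0.173) had differences nearly as large but did not pass. Of these, Gbp2 lost its call in 13 of 18 alternatives, among them size factors and a pseudocount of 0.1, with 2 genes then called. The count was 4 without the 3 libraries with markers of other cells, and with run as a block 8 of the 10 and 16% of all genes were called. It fell to 0 without WT Treg stim 1 or without WT Tconv 2, and to 1 without any 1 of WT Tconv 1, WT Tconv stim 1, WT Tconv stim 2 and WT Treg stim 2.

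After stimulation the gap between the 2 cell types was wide. Tgtp2 read 56.0 and 44.8 FPKM in stimulated WT Treg and 577 and 475 FPKM in stimulated WT Tconv, a log2 difference of -3.36 ± 0.37 (SE, adjusted p = 0.000124). Irgm1 differed by -3.37 ± 0.45 (SE, adjusted p = 0.000471) and Gbp2 by -2.76 ± 0.40 (SE, adjusted p = 0.000932). In all, 8 of the 10 genes were lower in stimulated Treg, where 3.02% of all genes tested were, and the other 5 were Gbp7 (-2.38), Iigp1 (-2.18), Gbp6 (-1.85), Igtp (-1.57) and Irgm2 (-1.54). Gbp3 (44.5 and 51.5 FPKM in Treg, 50.4 and 37.9 FPKM in Tconv) and Gm4951 did not pass, with differences of 0.13 and 0.15. Within runs, 10 of 10 genes were lower in run 3 and 8 of 10 in run 4. In run 3 Gm4951 was all but equal, at 1.76 FPKM in Treg and 1.77 FPKM in Tconv (-0.003). The count fell to 5 without WT Tconv stim 1 or without WT Treg stim 1.

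The next comparisons asked what loss of 1 NF-kB subunit did in resting Treg. In p65KO Treg, Gm4951 read 9.71, 5.48 and 7.98 FPKM against 2.57, 0.954, 1.79 and 1.2 FPKM in WT Treg, and every knockout value lay above every WT value. Its log2 difference of 1.74 ± 0.26 (SE, adjusted p = 0.0435) was 1 of only 4 higher calls over all genes tested (0.0347%), and the call was lost without p65KO Treg 1, p65KO Treg 3, WT Treg 3 or WT Treg 4, and with a pseudocount of 0.1, no filter, a filter of 5 FPKM or size factors. Iigp1 read 111, 35.8 and 85.9 FPKM against 54.2, 22.3, 37.0 and 31.6 FPKM, with overlapping libraries and a difference of 1.0 ± 0.38 (SE, adjusted p = 0.38), and Irgm1 differed by 0.82 ± 0.34 (SE, adjusted p = 0.441). The remaining 7 genes had differences between -0.01 (Gbp6) and 0.45 (Gbp7). Within runs, 10, 9 and 7 of the 10 genes were higher in p65KO Treg than in the WT Treg library of runs 1, 2 and 4. Size factors moved the median of all genes by 0.11 in this comparison, and the sign of Gbp6 turned without the 3 libraries with markers of other cells. The summed level of the 11 measured myeloid markers was 53.2 to 465 FPKM in p65KO Treg and 8.37 to 116 FPKM in WT Treg, with none at 0, and their part in these differences was not tested.

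In c-RelKO Treg none of the 10 genes passed the test, while 187 genes (1.62%) were higher and 1036 (8.98%) lower over all genes tested. At an unadjusted p under 0.05 stood 2 of the 10 and 26.1% of all genes tested, in either direction. With the run of the libraries as a block 2 of the 10 and 41.6% of all genes were called in either direction. Both shares of the 10 were under that of all genes with directions pooled. The 2 block calls were both higher, where 15.8% of all genes were higher and 25.9% lower. Gbp2 read 100.02 and 195 FPKM against 57.9, 60.4, 84.0 and 128 FPKM in WT Treg, a difference of 0.83 ± 0.35 (SE, adjusted p = 0.146). Without the 3 libraries with markers of other cells, which leaves c-RelKO Treg 1 alone in its group, the Gbp2 difference was 0.20. Iigp1 read 18.1 and 32.8 FPKM, with a difference of -0.49 ± 0.43 (SE, adjusted p = 0.512), and Irgm1 differed by 0.57 ± 0.39 (SE, adjusted p = 0.379). The differences thus took both signs, 6 above 0 and 4 below. Size factors moved the median of all genes by -0.20 here. The summed erythroid markers reached 20393 FPKM in c-RelKO Treg 2 against 8.14 FPKM in c-RelKO Treg 1 and 5.58 to 538 FPKM in WT Treg, with none of the 7 at 0, and without c-RelKO Treg 2 the number of the 10 genes called was again 0.

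Loss of both subunits was accompanied by higher GTPase mRNA at rest. Gbp2 read 454 and 478 FPKM in DKO Treg and 57.9, 60.4, 84.0 and 128 FPKM in WT Treg, a log2 difference of 2.56 ± 0.35 (SE, adjusted p = 0.000113). Irgm1 read 198 and 129 FPKM against 68.0, 36.1, 40.6 and 28.6 FPKM (1.93 ± 0.39 SE, adjusted p = 0.00189), and Igtp 474 and 526 FPKM against 155, 155, 241 and 258 FPKM (1.34 ± 0.26 SE, adjusted p = 0.0016). In each case both DKO values stood above all 4 WT values. The effectors Iigp1 (1.64 ± 0.43 SE, adjusted p = 0.0101) and Tgtp2 (1.38 ± 0.32 SE, adjusted p = 0.00486) rose as well, as did Gbp7 (1.07, adjusted p = 0.00898) and Gm4951 (1.57, adjusted p = 0.00132). So 7 of the 10 genes were called higher and none lower, where 19.4% of all genes tested were higher and 13.6% lower. Groups did not overlap for 9 of the 10, all but Gbp3, as for 25.7% of all genes tested. Gbp6 read 72.4 and 68.0 FPKM against 52.6, 46.1, 29.7 and 38.3 FPKM, a difference of 0.77 ± 0.30 (SE, adjusted p = 0.0644). Irgm2, at 68.5 to 71.4 FPKM in DKO and 49.5 to 59.9 FPKM in WT Treg, did not pass either (0.38 ± 0.22 SE, adjusted p = 0.193), nor did Gbp3 (0.35 ± 0.25 SE, adjusted p = 0.301).

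The median difference of the 10 genes between DKO and WT Treg was 1.36, against 0.06 over all genes tested. Within runs 3 and 4 all 10 genes were higher in DKO Treg, with medians of 1.21 and 1.39. The count of 7 ranged from 5, without DKO Treg 2, to 8, without WT Treg 1, and was 8 without the 3 libraries with markers of other cells. Some genes listed as markers of NK and CD8 T cells moved with this difference. Of these 9 markers, 4 rose in DKO Treg (Gzma 4.01, Nkg7 3.08, Klrk1 2.95, Ncr1 0.86). At least 1 FPKM in some library of the group was reached by 5 of the 9 in DKO Treg and 7 in WT Treg. The sum of the 9 was 129 to 227 FPKM in DKO Treg and 12.7 to 59.5 FPKM in WT Treg, with none at 0. It was 38.4 to 303 FPKM in p65KO and 73.0 to 155 FPKM in c-RelKO Treg. Foxp3 fell by 4.09 on the log2 scale. The part of either in the higher GTPase values was not tested.

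Against the single knockouts, 2 of the 10 genes were higher in DKO than in p65KO Treg (8.75% of all genes tested), Gbp2 (2.2 ± 0.37 SE, adjusted p = 0.00127) and Igtp (0.95 ± 0.28 SE, adjusted p = 0.0281). Gm4951, high in both genotypes, differed by -0.17 ± 0.32 (SE, adjusted p = 0.753). In DKO against c-RelKO Treg, 5 of the 10 were higher (19.5% of all genes tested), namely Gm4951 (2.21 ± 0.35 SE, adjusted p = 0.000871), Iigp1 (2.13 ± 0.50 SE, adjusted p = 0.00842), Gbp2 (1.73 ± 0.40 SE, adjusted p = 0.00789), Gbp7 (1.40) and Irgm1 (1.36). Size factors moved the median of all genes by 0.25 in that comparison and turned the sign of Irgm2, at 0.12. The call on Irgm1 was lost with size factors and in 7 of 12 alternatives in all. These counts moved with single libraries. The first was 5 without p65KO Treg 1 and 1 without p65KO Treg 2, DKO Treg 1 or DKO Treg 2, and the second was 1 without c-RelKO Treg 1 or DKO Treg 2 and 4 without the 3 libraries with markers of other cells. Within runs, all 10 genes were higher in DKO than in p65KO Treg (run 4), and 9 and 8 of 10 were higher in DKO than in c-RelKO Treg (runs 3 and 4). Whether p65 loss had another effect in cells that also lack c-Rel was tested as an interaction. None of the 10 genes passed, against 1.10% of all genes tested higher and 0.806% lower, with 3 of the 10 and 18.8% of all genes at an unadjusted p under 0.05. With run as a block 4 of the 10 and 38.4% of all genes were called. The differences ran from -0.42 (Gbp3) to 1.37 ± 0.50 (SE, adjusted p = 0.17) for Gbp2.

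**Figure D3:**
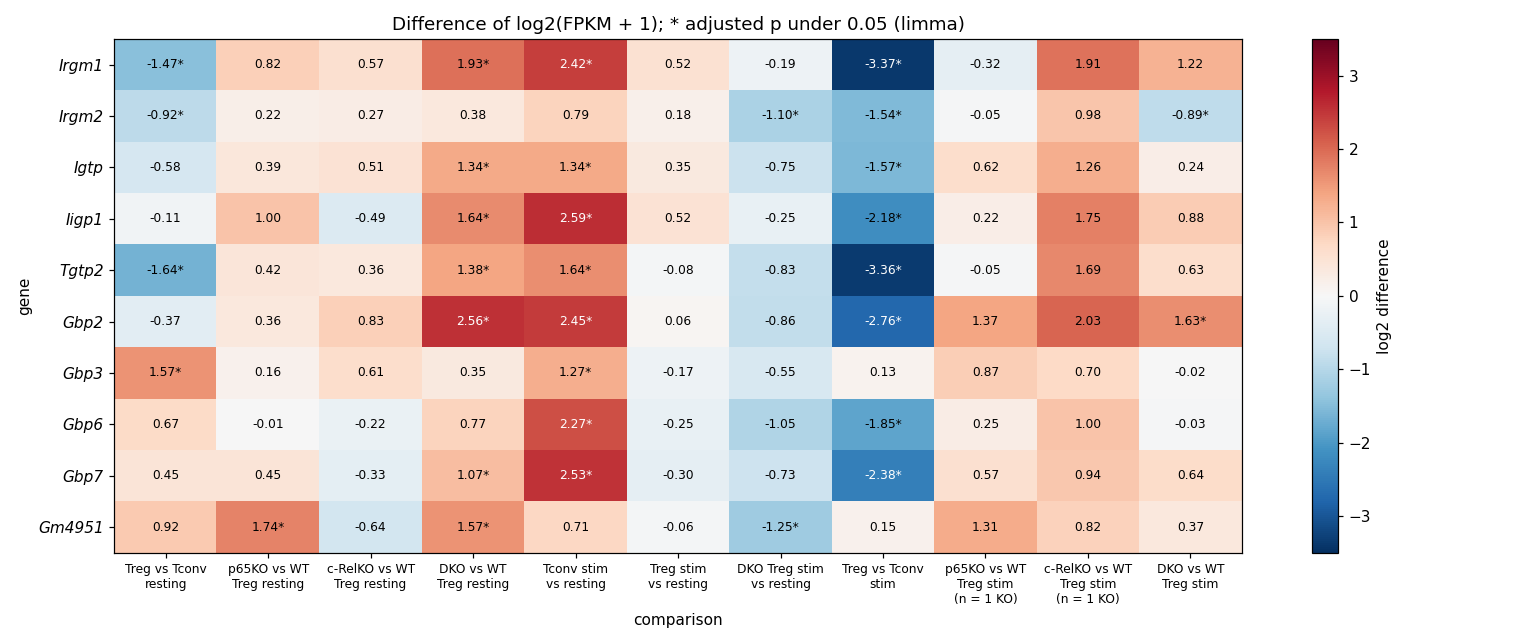
Log2 differences of the 10 genes in 11 comparisons, as colours from blue (lower in the first group named) to red (higher) with the value in each cell and an asterisk at an adjusted p under 0.05. The columns for stimulated Tconv and for resting DKO Treg are red for all 10 genes, and the column for stimulated Treg against stimulated Tconv is blue for 8.

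In DKO Treg none of the 10 genes was called higher after stimulation. All 10 differences were below 0, while the median over all genes tested was itself -0.19, and 2 genes fell, Irgm2 (-1.10 ± 0.25 SE, adjusted p = 0.0145) and Gm4951 (-1.25 ± 0.35 SE, adjusted p = 0.0349), where 6.13% of all genes tested did. Irgm2 read 71.4 and 68.5 FPKM at rest and 44.3 and 23.3 FPKM stimulated. Gbp2 read 454 and 478 FPKM at rest and 358 and 183 FPKM stimulated, without overlap but not past the threshold (-0.86 ± 0.40 SE, adjusted p = 0.203). For 8 of the 10 genes both stimulated values lay below both resting ones, as for 44.8% of all genes tested. The stimulated libraries differed from each other, with DKO Treg stim 2 the lower for every gene but Gbp3. Within runs, 8 of 10 genes were lower after stimulation in run 3 and 10 of 10 in run 4. With size factors, which moved the median of all genes by -0.19, 1 of the 10 was called and the sign of Irgm1 turned. Without DKO Treg 2 or DKO Treg stim 2, the count was 0, without DKO Treg 1 it was 1, and without the 3 libraries with markers of other cells it was 3. With run as a block 6 of the 10 and 42.1% of all genes were called. The test of whether the DKO and WT Treg responses differ called none of the 10, against 0.234% of all genes tested lower and 0.737% higher, with 3 of the 10 and 10.4% of all genes at an unadjusted p under 0.05. The largest difference was that of Irgm2 (-1.28 ± 0.33 SE, adjusted p = 0.106), and with run as a block 3 of the 10 and 14% of all genes were called.

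Between stimulated DKO and stimulated WT Treg, Gbp2 was higher (358 and 183 against 70.5 and 95 FPKM, 1.63 ± 0.40 SE, adjusted p = 0.00691) and Irgm2 lower (44.3 and 23.3 against 66.0 and 55.7 FPKM, -0.89 ± 0.25 SE, adjusted p = 0.0144). That is 1 of 10 genes in each direction, where 16.6% of all genes tested were higher and 16.2% lower. Irgm1 read 208 and 94.5 against 68.6 and 51.5 FPKM, with a difference of 1.22 ± 0.45 (SE, adjusted p = 0.0504). Irgm1 passed, for 3 calls in all, with size factors, with a pseudocount of 0.1 and without the 3 libraries with markers of other cells. Gbp3 and Gbp6 were near 0 and changed sign with size factors. Within runs, 8 of 10 genes were higher in run 3 and 7 of 10 in run 4. The NK and CD8 T cell markers summed to 191 to 349.9 FPKM in stimulated DKO and 14.8 to 19.2 FPKM in stimulated WT Treg, with none at 0, and their part was not tested. The 2 calls were lost without WT Treg stim 1, and 1 was left without DKO Treg stim 1.

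Single libraries stand for stimulated c-RelKO and p65KO Treg, whose spread is assumed to be that of the other groups. The c-RelKO library read 226 FPKM for Irgm1, 603 for Igtp, 170.3 for Iigp1 and 336 for Gbp2. It stood above both stimulated WT Treg libraries for all 10 genes, as it did for 29.8% of all genes tested. None of the 10 passed limma's test (0.0607% of all genes tested were called higher and 0.286% lower), but 8 of them were at an unadjusted p under 0.05, as were 6.93% of all genes tested. The largest difference was that of Gbp2 (2.03 ± 0.49 SE) and the median 1.13. Against the resting c-RelKO library of the same run, 9 of 10 genes were higher, with Iigp1 at 2.34 and Irgm1 at 1.69 on the log2 scale. That resting library is c-RelKO Treg 2, with markers of other cells. In stimulated p65KO Treg, Gbp2 read 213 FPKM (1.37 ± 0.49 SE, adjusted p = 0.177) and Irgm1 47.5 FPKM (-0.32 ± 0.55 SE, adjusted p = 0.854). None of the 10 passed there (0.650% of all genes tested were higher and 0.364% lower), with 3 of them and 15.7% of all genes tested at an unadjusted p under 0.05. Against the resting p65KO library of the run, p65KO Treg 3 with its myeloid markers, 5 genes were higher and 5 lower. Size factors moved the median of all genes by -0.13 in the c-RelKO and 0.19 in the p65KO comparison.

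The TAT-Cre set has 1 library per group and allows no test. Its stimulated WT Tconv control read 827 FPKM for Gbp2, 417 for Irgm1 and 335 for Tgtp2. The stimulated WT Treg control read 112, 126 and 114 FPKM for the same genes. All 10 genes were higher in the Tconv control and 6 at least 2-fold, as were 1.54% of all genes. The library labelled FoxP3 del had 127 FPKM of Gbp2 and 122 of Irgm1, with none of the 10 at least 2-fold above the Treg control (2.79% of all genes were). The library labelled NFkB del had 104 and 155 FPKM, with only Gbp3 (73.9 against 32.4 FPKM) at least 2-fold higher (1.57% of all genes). Rel stood at 38.7 FPKM in that library and 171 FPKM in the control, while Rela stood at 124 and 125 FPKM. Markers of other cells differed within this set. Summed B cell markers read 67.3 FPKM in FoxP3 del and 38.3 FPKM in NFkB del, against 30.7 FPKM in the WT Treg control. In the same order, myeloid markers read 82.5 and 73.9 against 14.8 FPKM, and erythroid markers 61.9 and 1628 against 69.8 FPKM. Their part in the GTPase values was not tested.

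Genes of the pathway were followed in the same fit. Ifng, which encodes interferon-gamma, read 10.5 and 4.98 FPKM in resting and 88.4 and 41.3 FPKM in stimulated WT Tconv (2.89 ± 0.72 SE, adjusted p = 0.0181), and 12.5 and 7.72 FPKM in stimulated WT Treg. In resting DKO Treg it read 27.3 and 41.3 FPKM against 5.62, 8.61, 5.66 and 1.75 FPKM in WT Treg (2.57 ± 0.62 SE, adjusted p = 0.00633). After stimulation DKO Treg reached 5804 and 15417 FPKM (8.09 ± 0.72 SE, adjusted p = 1.3e-05), against at most 105 FPKM in any library of another group. None of the 10 GTPase genes was called higher there, though 2 of the 10 were higher after stimulation in run 3. Some receptor genes read low in DKO Treg. Ifngr2, the signalling chain of the interferon-gamma receptor, stood at 19.8 and 14.9 FPKM in resting DKO Treg against 29.9, 78.9, 97.5 and 64.4 FPKM in WT Treg (-1.80 ± 0.44 SE, adjusted p = 0.00683) and at 7.99 and 5.92 FPKM after stimulation. Ifngr1, the ligand-binding chain, is in the same list, was named after its values were seen, and stood at 173 and 69.8 FPKM in stimulated DKO Treg against 679.8 and 461 FPKM in stimulated WT Treg (-2.34 ± 0.74 SE, adjusted p = 0.0269), and Ifnar1, a type I interferon receptor chain, differed by -2.08 ± 0.24 (SE, adjusted p = 3.27e-05). In resting DKO Treg Ifngr1 read 555 and 377 FPKM, inside the range of WT Treg. In stimulated WT Tconv Ifngr1 read 260.1 and 192 FPKM against 633 and 416 FPKM at rest. Ifngr2 read 48.6 to 62.1 FPKM there against 80.8 to 92.3 FPKM at rest, above its values in stimulated DKO Treg. The stimulated Tconv control of the TAT-Cre set read 23.1 FPKM for Ifngr1 and 9.15 FPKM for Ifngr2. The part of receptor levels in the GTPase values was not tested. Between stimulated DKO and WT Treg, 4 of the 5 ligand and receptor genes tested were lower and 1, Ifng, was higher, where 16.2% of all genes were lower and 16.6% higher.

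**Figure D4:**
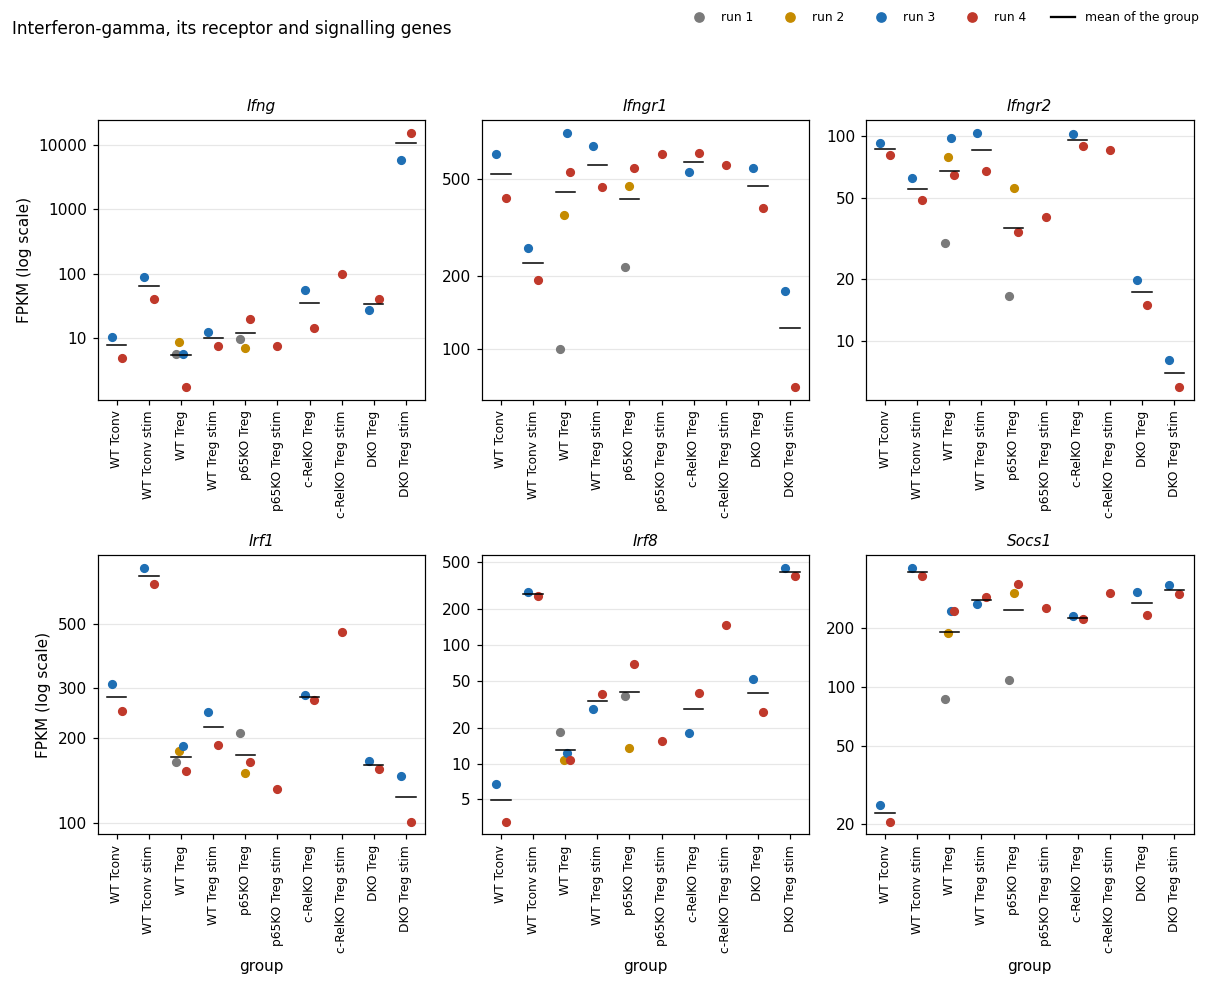
FPKM (log axis) of Ifng, Ifngr1, Ifngr2, Irf1, Irf8 and Socs1 in the 21 libraries by group, with 1 point per library coloured by run and a line at the mean of groups with more than 1 library. Stimulated DKO Treg had the highest Ifng and the lowest Ifngr2, and stimulated WT Tconv had the highest Irf1.

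Among the signalling genes, Irf1 read 308 and 248 FPKM in resting and 791 and 693 FPKM in stimulated WT Tconv (1.42 ± 0.22 SE, adjusted p = 0.000986), against 246 and 188 FPKM in stimulated WT Treg and 147 and 101 FPKM in stimulated DKO Treg. Irf8, which encodes another IRF factor, rose in stimulated Tconv (5.57 ± 0.57 SE, adjusted p = 8.49e-05) and in stimulated DKO Treg (3.43 ± 0.57 SE, adjusted p = 0.00227). Socs1, whose product inhibits JAK kinases, read 25 and 20.5 FPKM in resting and 406 and 366 FPKM in stimulated Tconv, but already 86.7, 188, 245 and 244 FPKM in resting WT Treg (2.91 ± 0.43 SE, adjusted p = 0.000617 against resting Tconv). Of 12 signalling genes tested, 4 rose and none fell in stimulated Tconv, where 6.69% of all genes rose. In stimulated DKO against stimulated WT Treg 1 was higher and 5 lower, where the shares of all genes were 16.6% and 16.2%.

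The other GTPase genes were counted from lists. Of 5 other IRG genes tested, Gm12250 (1.93 ± 0.31 SE, adjusted p = 0.000428) was the only one called in resting DKO against WT Treg, and Gm12250 (2.39) and Gm12185 (2.63) rose in stimulated Tconv. Of 7 other GBP genes, 4 rose in stimulated Tconv, Gbp11 (2.57), Gbp10 (2.31), Gbp5 (2.06) and Gbp4 (1.78). In resting DKO against WT Treg none of these 7 rose and 2 fell, Gbp9 (-1.51 ± 0.45 SE, adjusted p = 0.0202) and Gbp1 (-0.94 ± 0.30 SE, adjusted p = 0.0274). The median difference of the 7 was -0.02 there, against 1.36 for the 10 genes described here. Members and lists were chosen with earlier results of these data known, so this contrast is not independent of the data. In resting DKO against WT Treg, 19.4% of all genes rose and 13.6% fell. Of 16 interferon-gamma response genes, 4 rose and 1 fell, among them Cxcl9 (1.16), Wars (1.07) and Tap1 (0.65), the fall being in Nlrc5 (-0.90), and the median was 0.11. Of 19 type I interferon response genes, 1 rose, Oasl2 (1.06), and 2 fell, Oas2 (-1.43) and Oas1a (-1.41). In stimulated Tconv the corresponding counts were 3 of 16 and 4 of 19 higher, with none lower, where 6.69% of all genes rose.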

How the data were processed

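The authors deposited gene-level FPKM values with confidence bounds, 1 table per library, and per the file headers these are Cufflinks tracking tables without read counts. The submitters' processing notes name bcl2fastq, TopHat, Cufflinks and build mm9. Tool versions, annotation and strandedness were not given in the sources used here. Symbols with any entry not marked OK (250) were left out, and entries of 181 symbols on several loci were summed, which left 22985. The width of the bounds implies 15.4 to 52.8 M mapped fragments per library, an estimate.

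The 11532 genes at 1 FPKM or more in 2 or more of 21 libraries were tested with limma 3.58.1 in R 4.3.3, with a mean-variance trend, on log2(FPKM + 1), with 1 mean per group and 11 residual degrees of freedom. P-values were adjusted by Benjamini-Hochberg over all genes tested, and an adjusted p under 0.05 was called. A difference is that of group means on the log2(FPKM + 1) scale, which understates changes of low genes. The fit was tested on simulated data. The members and gene lists were chosen with earlier results of these data known, and 1 signalling gene is not reported here. The text names the 10 members, up to 4 genes per list with the smallest p in a comparison, and the 5 genes nearest to the members' mean profile. Alternatives were pseudocount, filter, size factors, fewer groups, blocks for run or replicate number, and leaving out libraries. Unless a direction is named, shares of all genes called under a block take both directions together.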

Additional observations from a re-analysis of the deposited data

Results flagged for a closer look

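Tgtp2 in WT Treg 1 stood apart from the other resting WT Treg libraries, at 87.9 FPKM against 41.3, 46.0 and 47.1 FPKM. Dixon's test was applied to all 10 genes in the 4 resting WT Treg libraries, and chance gives about 1 such library in 20 groups. The summed level of the 7 measured B cell markers was 67.6 FPKM in WT Treg 1 and 5.68 to 12.9 FPKM in the other 3, and its part in the Tgtp2 value was not tested.

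The stimulation response differed between WT Treg and WT Tconv for 3 of the 10 genes by limma's test of the difference, which called 0.945% of all genes tested lower. The log2 difference of the responses was -2.39 for Gbp2, -2.52 for Gbp6 and -2.83 for Gbp7, with all stimulated Tconv libraries above the resting ones and the Treg libraries overlapping. The call on Gbp2 was lost in 13 of 18 alternatives, among them size factors and a pseudocount of 0.1.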

How the results depend on the processing

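The higher GTPase genes in resting DKO Treg and in stimulated Tconv, and the lower ones in stimulated Treg against stimulated Tconv, had counts of 7 to 9 under every setting other than leaving out single libraries. Of 529 re-computations of the 42 called single-gene results, 434 kept the call, 95 lost it and none changed sign. Leaving out the 3 libraries with markers of other cells was chosen after seeing the data. Leaving out single libraries gave 5 to 8 calls for DKO against WT Treg.

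Leaving out each library in turn gave 1 to 4 calls for resting Treg against Tconv, 0 to 1 for p65KO, 1 to 5 for DKO against p65KO and 1 to 4 for DKO against c-RelKO Treg. It gave 3 to 8 for stimulated Tconv, 0 to 2 for stimulated against resting DKO Treg, 5 to 8 for stimulated Treg against stimulated Tconv and 0 to 2 for stimulated DKO against stimulated WT Treg. The tests of differing responses gave 0 to 1 for DKO against WT Treg and 0 to 4 for Treg against Tconv. The p65KO call on Gm4951 was lost (0 calls) with a pseudocount of 0.1, no filter, a filter of 5 FPKM, size factors or only the compared groups. Stimulated against resting DKO Treg gave 1 call with a pseudocount of 0.1, no filter or size factors and 0 with only the compared groups. DKO against p65KO Treg gave 5 calls with size factors. With only the compared groups, 2 genes were called in resting Treg against Tconv, 1 in DKO against p65KO Treg, 4 in stimulated DKO against WT Treg, 2 in stimulated p65KO and 1 in stimulated c-RelKO Treg. The cause of these changes was not tested.

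The replicate numbers of the labels did not pair the samples, since same-numbered libraries of different runs had a mean correlation of deviations of -0.119 over 25 pairs, while 51 pairs of the same run had 0.432. With the label number as a replicate block, the calls, with the share of all genes called in parentheses, were 8 for DKO against c-RelKO (37.2%), 7 for resting Treg against Tconv (26.5%), 4 for DKO against p65KO (31.8%), 3 for c-RelKO (28.3%) and 0 for p65KO Treg (0.0521%). They were 4 for stimulated against resting DKO Treg (18.4%), and 2 (8.61%) and 6 (10.6%) for the differing responses of DKO against WT Treg and of Treg against Tconv. In stimulated against resting WT Treg this block called 27.1% of all genes and 0 of the 10. With the run as replicate block, the calls were 8 for DKO against c-RelKO (60.3%), 5 for DKO against p65KO (46.8%), 3 for p65KO (8.82%) and 2 for c-RelKO Treg (41.6%) at rest, and 4 for the p65 effect with and without c-Rel (38.4%). After stimulation they were 6 for DKO against resting DKO (42.1%), 6 for DKO against WT (62.7%), 6 for c-RelKO (8.55%) and 2 for p65KO Treg (27.2%), and 3 (14%) and 8 (16%) for the differing responses. The label-number block could not be fitted for the comparisons with 1 stimulated mutant library. The shares in parentheses take both directions together. With run as a block, 42.5% of all genes were higher in DKO than in c-RelKO Treg and 26.4% higher than in p65KO Treg. In stimulated against resting DKO Treg 30.8% were lower. For the differing responses 9.44% (DKO against WT Treg) and 8.26% (Treg against Tconv) were lower.

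Fragment depth is known only as an estimate, so no counting interval is given, and with 2 libraries in most groups the spread rests on 11 degrees of freedom. Gm4951, at 10 to 1050 implied fragments per library, is the least precise of the 10 genes.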
